A study of Mus musculus with 10 samples.

Results

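Semaphorins are a family of guidance proteins, and 8 semaphorin genes were measured here in 5 sorted populations of mouse mammary cells. Members were all probe sets whose only gene symbol is Sema followed by a digit and a letter. They came to 13 of the 3663 probe sets in the table and to 8 of the 2932 features tested, where a feature is a named gene or a probe set without exactly 1 symbol. The genes were Sema3a, Sema3b, Sema3c, Sema3g, Sema4d, Sema4g, Sema5a and Sema6d. Sema3b, Sema3c and Sema6d had 2 probe sets each, Sema5a had 3, and the other genes had 1. The RefSeq gene table lists 20 semaphorin genes in the mouse, and the other 12 were not analysed here.

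All cells were from virgin FVB females aged 6 to 8 weeks, and the labels name no treatment. Glands were dissociated to single cells, cells with CD45, CD31 or Ter119, and per the methods CD140α (Pdgfra, a fibroblast marker), were discarded, and the other cells were sorted in repeated passes on CD24, CD49f (integrin α6) and Thy-1. Each population had 2 Affymetrix mouse expression arrays, so there were 10 arrays in all. The luminal populations, with 4 arrays, were CD24highCD49fmed, which the labels call luminal progenitors, and CD24medCD49f-/low, called differentiated luminal cells. The basal populations, with 6 arrays, were CD24medCD49fmed, called myoepithelial cells, Thy-1+CD24medCD49fhigh, called stem cells, and Thy-1-CD24medCD49fhigh, called progenitors. In the study's text the myoepithelial gate is CD24lowCD49fmed instead. A gate is a surface phenotype and can hold several cell types, and in such bulk samples fewer cells of a type and less RNA per cell cannot be told apart.

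Values are log2 intensities centred on the mean of the 10 arrays, so 0 is a gene's own average and 1 is a 2-fold difference. They compare arrays for 1 gene and do not rank genes by abundance. Because the authors kept only probe sets that differed at least 4-fold between some arrays, every semaphorin in the table was there because it varied. Whether the 2 arrays of a population stem from different animals is not stated, and p-values then reflect only the scatter of these arrays, which may be technical. Array medians lay between -0.43 and 0.17, and the arrays of a population correlated between 0.364 for CD24medCD49f-/low and 0.924 for CD24highCD49fmed. The labels fitted the lineage markers, since 13 of 13 basal markers were called higher in basal arrays, and of 10 measured luminal markers 6 were called lower and none higher.

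Semaphorins share an extracellular sema domain and act mainly through plexin receptors, whose cytoplasmic part is a GTPase-activating domain that loosens adhesion and the cytoskeleton. Class 3 members are secreted and usually need a neuropilin to reach their plexin, whereas classes 4, 5 and 6 span the membrane and act over short range. They were found as cues that steer axons and also act in vessels, immune cells and branching epithelia. In the mammary duct the luminal cells line the lumen, and the basal layer, largely contractile myoepithelium, separates them from the basement membrane and stroma.

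Promoter windows are shown for the 3 semaphorins with the largest basal excess and for Sema4d, the single member that was higher in luminal arrays, because these genes moved together or apart. RefSeq (GRCm38.p6) gave 10 windows for 7 of the 8 genes, each being the 250 bases before a transcription start, read 5′ to 3′ on the gene's strand. The Sema6d window was chr2:124089719-124089968 on the plus strand, the first of 2 for that gene. Sema5a was at chr15:32244563-32244812 (plus), Sema3c at chr5:17574566-17574815 (plus) and the Sema4d window, 1 of 3, at chr13:51748811-51749060 (minus). Capitals mark matches on either strand to the motifs searched other than the E-box.
Sema6d: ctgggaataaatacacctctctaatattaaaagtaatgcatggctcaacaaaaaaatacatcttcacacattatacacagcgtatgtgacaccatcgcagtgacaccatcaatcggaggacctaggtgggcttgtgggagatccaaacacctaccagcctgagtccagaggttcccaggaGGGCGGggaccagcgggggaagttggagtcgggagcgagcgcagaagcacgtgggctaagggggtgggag
Sema5a: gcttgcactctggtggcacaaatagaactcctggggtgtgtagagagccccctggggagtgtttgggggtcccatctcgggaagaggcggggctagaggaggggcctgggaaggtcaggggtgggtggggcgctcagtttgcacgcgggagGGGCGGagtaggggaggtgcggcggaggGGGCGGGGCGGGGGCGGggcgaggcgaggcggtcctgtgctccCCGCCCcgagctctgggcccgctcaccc
Sema3c: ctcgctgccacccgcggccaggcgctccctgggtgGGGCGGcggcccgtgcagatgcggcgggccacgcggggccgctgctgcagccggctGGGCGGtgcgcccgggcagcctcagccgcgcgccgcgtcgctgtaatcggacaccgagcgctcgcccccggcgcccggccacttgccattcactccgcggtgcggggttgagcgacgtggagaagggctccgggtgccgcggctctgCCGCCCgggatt
Sema4d: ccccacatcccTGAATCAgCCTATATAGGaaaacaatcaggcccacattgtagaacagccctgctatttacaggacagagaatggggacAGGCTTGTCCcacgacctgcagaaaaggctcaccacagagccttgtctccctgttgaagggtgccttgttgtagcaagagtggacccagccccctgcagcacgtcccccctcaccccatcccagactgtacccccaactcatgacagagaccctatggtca
The Sema5a and Sema3c windows were rich in G and C, at 72% and 78.4% against a median of 52.4% over all windows, and held 5 and 3 matches to the GC box (GGGCGG). That motif was in 6 of the 10 semaphorin windows and in 32.7% of all 32851 windows. The Sema4d window held 1 match each to the AP-1 motif (TGANTCA), the CArG box and the p53 family motif, which occurred in 6.75%, 1.47% and 7.13% of all windows. Those motifs were in no other semaphorin window, the remaining Sema4d windows included, and 1 of these held a GC box match instead. The Sema4d window shown was thus the only 1 of its 3 with these motifs and does not stand for the others. The E-box (CANNTG) was in 8 of 10 windows and in 66.2% of all windows, and the TEAD motif (GGAATG) was in none of the 10 and in 12.6% of all windows. These are descriptions of letters only, since the arrays do not show which start a gene used.

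The first comparison asked how semaphorins differed between the basal and the luminal lineage. Of the 8 genes, 7 were higher in basal arrays and Sema4d was lower. For Sema6d, Sema5a, Sema3c, Sema3b, Sema3a and Sema4g, every basal array lay above every luminal array. The differences ran from 9.07-fold for Sema6d down to 1.64-fold for Sema3g. All 8 passed the test (limma, Benjamini-Hochberg adjusted p under 0.05 over the 2932 features), whereas 34.7% of features were called higher and 41.3% lower in basal arrays. The ranges of the lineages did not overlap for 6 of 8 semaphorins and for 49% of all features. The median difference was 2.05 over the semaphorins and -0.11 over all features.

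**Figure D1:**
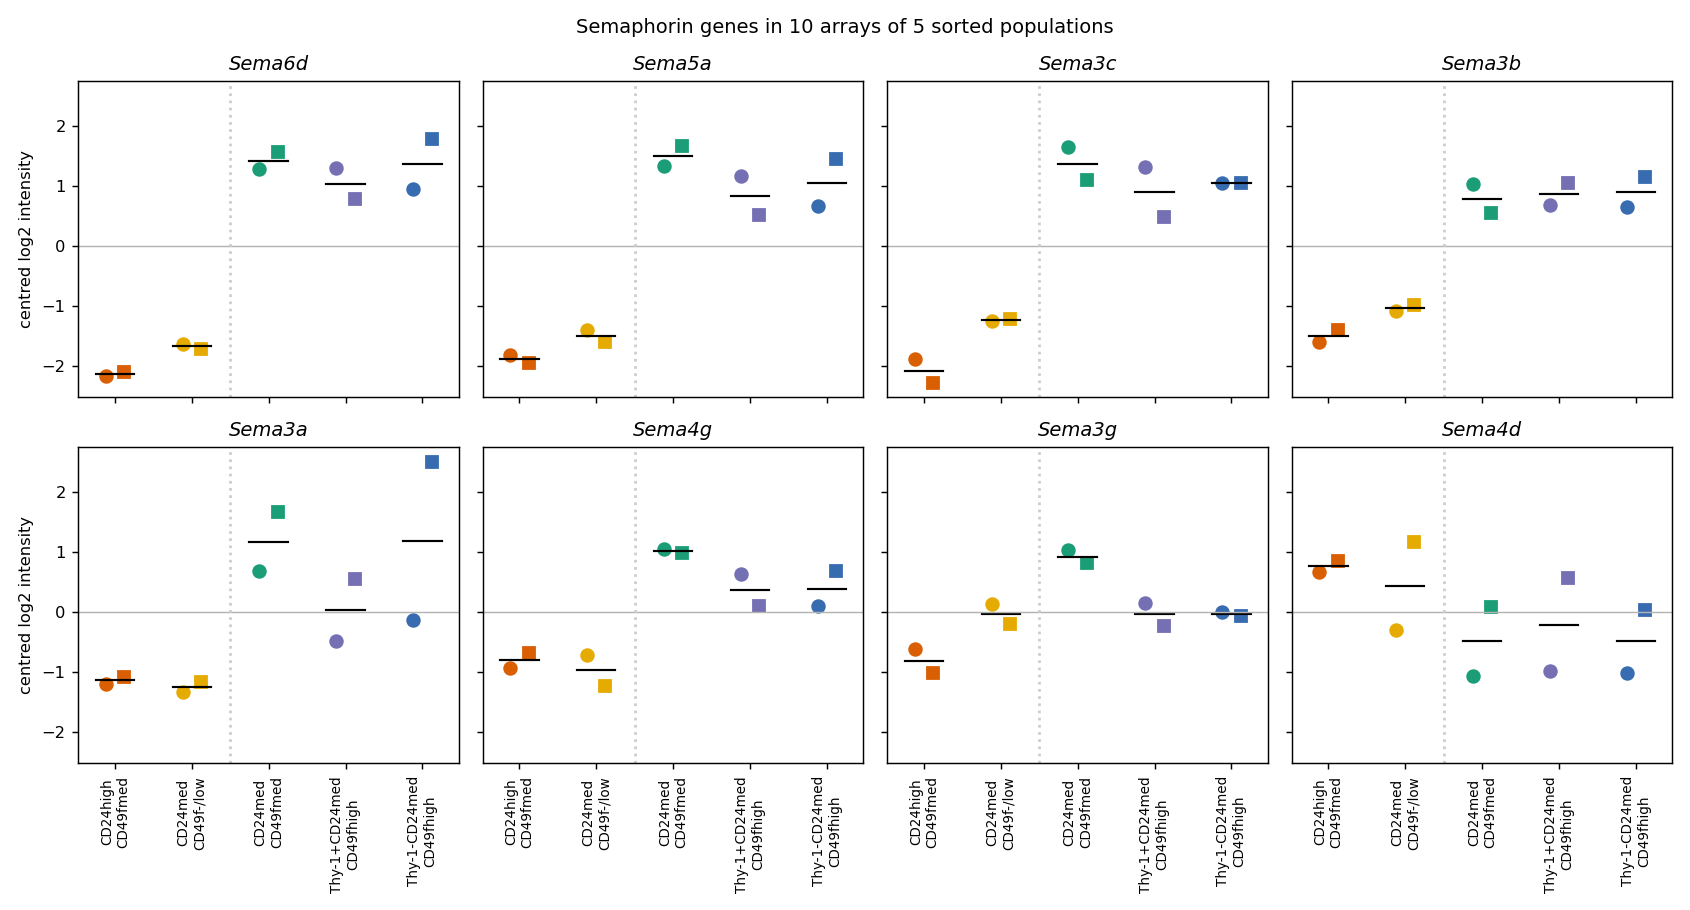
Centred log2 intensity (y axis) of the 8 semaphorin genes in each of 10 arrays, by population (x axis), with circles and squares for the lower and higher numbered array of a population and black bars for the mean of both. The dotted line separates luminal populations on the left from basal ones on the right. Sema6d, Sema5a, Sema3c, Sema3b, Sema3a and Sema4g show no overlap across that line, and Sema3g and Sema4d do.

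Sema6d, a transmembrane ligand of class A plexins, had the largest difference. Its basal arrays had a lowest value of 0.78, a median of 1.28 and a highest value of 1.78. The luminal arrays were at -2.18 and -2.11 in CD24highCD49fmed and at -1.63 and -1.72 in CD24medCD49f-/low. Every basal array was thus above the gene's mean and every luminal array well below it. The difference was 3.18 ± 0.33 (SE) on the log2 scale with adjusted p = 1.08e-07 (limma). It stood at percentile 97.6 among the differences of all features. Its 2 probe sets gave 2.48 and 3.88, both called.

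Sema5a, which carries thrombospondin repeats outside the cell beside its sema domain, followed closely. Its basal arrays ran from 0.51 through a median of 1.24 to 1.67. In the luminal arrays it was at -1.82 and -1.95 in CD24highCD49fmed and at -1.40 and -1.60 in CD24medCD49f-/low. The groups lay far apart, and the difference was 2.82 ± 0.33 (7.05-fold, limma adjusted p = 5.85e-07). The 3 probe sets gave 2.78, 2.96 and 2.72, all called, so they hardly differed in this contrast.

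Among the secreted class 3 members, Sema3c had the largest lineage difference. Basal arrays had a lowest value of 0.49, a median of 1.07 and a highest value of 1.64. Luminal arrays were at -1.88 and -2.28 in CD24highCD49fmed and at -1.25 and -1.23 in CD24medCD49f-/low. The difference was 2.77 ± 0.33 (6.80-fold, limma adjusted p = 7.17e-07), and the 2 probe sets gave 2.36 and 3.17, both called.

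Sema3b, another secreted member, was even across the basal arrays with its probe sets averaged, from 0.55 through a median of 0.85 to 1.14. Its luminal values were -1.60 and -1.40 in CD24highCD49fmed and -1.10 and -0.99 in CD24medCD49f-/low. The gap between lineages was larger than the spread inside either, with a difference of 2.12 ± 0.32 (4.33-fold, limma adjusted p = 1.38e-05). Its 2 probe sets gave 1.78 and 2.45, both called.

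Sema3a, the prototype of the repulsive class 3 cues, behaved differently inside the lineages. The luminal arrays were tight, at -1.19 and -1.08 in CD24highCD49fmed and at -1.33 and -1.17 in CD24medCD49f-/low. Basal arrays were scattered from -0.48 through a median of 0.61 to 2.51. All of them still lay above the luminal arrays, and the difference was 1.99 ± 0.43 (3.98-fold, limma adjusted p = 0.000499).

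Sema4g, a transmembrane class 4 member, ran from 0.10 through a median of 0.66 to 1.05 in basal arrays. Its luminal arrays were at -0.93 and -0.68 in CD24highCD49fmed and at -0.72 and -1.23 in CD24medCD49f-/low. The groups did not overlap, and the difference was 1.48 ± 0.32 (2.79-fold, limma adjusted p = 0.000573).

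Sema3g, a secreted member known from endothelium, had overlapping lineages. It was at 1.03 and 0.82 in CD24medCD49fmed, at 0.16 and -0.24 in Thy-1+CD24medCD49fhigh and at 0.01 and -0.07 in Thy-1-CD24medCD49fhigh. Luminal values were -0.62 and -1.02 in CD24highCD49fmed and 0.13 and -0.20 in CD24medCD49f-/low. CD24medCD49fmed was thus high, CD24highCD49fmed low, and the remaining populations met near the mean. The basal minus luminal difference of 0.71 ± 0.32 just passed (limma adjusted p = 0.0472). The call was lost with array medians set to 0 (0.62, adjusted p = 0.0776), after quantile normalisation (0.45, adjusted p = 0.174), with array weights (adjusted p = 0.0760) and with a replicate block (0.80, adjusted p = 0.0757), and the difference was under the minimum of 1 that another alternative asks for. It was also lost without CD24medCD49f-/low replicate 2 (adjusted p = 0.0652), CD24highCD49fmed replicate 1 (0.0912) or 2 (0.186), CD24medCD49fmed replicate 2 (0.106) or 3 (0.0785), Thy-1+CD24medCD49fhigh replicate 1 (0.0736) or Thy-1-CD24medCD49fhigh replicate 1 (0.0572). Against CD24highCD49fmed alone the difference was 1.10 (adjusted p = 0.0185), and against CD24medCD49f-/low alone it was 0.32 (adjusted p = 0.484). None of the 16 endothelial marker genes listed as a check was in the table. Under the authors' filter on level and 4-fold range, this does not show whether endothelial RNA was present. The same holds for other marker genes absent from the table.

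Sema4d, also named CD100, is a transmembrane ligand of plexin B1 that is well known from lymphocytes. It was the single semaphorin with lower values in basal arrays. CD24highCD49fmed arrays were at 0.68 and 0.85, and CD24medCD49f-/low arrays at -0.30 and 1.16. Basal values were -1.07 and 0.09 in CD24medCD49fmed, -0.99 and 0.56 in Thy-1+CD24medCD49fhigh and -1.01 and 0.03 in Thy-1-CD24medCD49fhigh. In 4 of the 5 populations the arrays of 1 population were more than 1 log2 unit apart, and the lineages overlapped. The difference was -0.995 ± 0.41, or 1.99-fold lower in basal arrays (limma adjusted p = 0.0316).

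The Sema4d call held with array medians set to 0 (-1.08, limma adjusted p = 0.0137) and with a replicate block (-1.36, adjusted p = 0.00270). It also held with robust moderation (adjusted p = 0.0294) and array weights (adjusted p = 0.0323). The call was lost after quantile normalisation (-0.87, adjusted p = 0.0873) and with a minimum absolute log2 difference of 1, which its -0.995 just missed. It was also lost without CD24medCD49f-/low replicate 2 (-0.63, adjusted p = 0.129), CD24highCD49fmed replicate 1 (adjusted p = 0.0588) or 2 (0.0740), CD24medCD49fmed replicate 2 (0.0865), Thy-1+CD24medCD49fhigh replicate 1 (0.131) or Thy-1-CD24medCD49fhigh replicate 1 (0.126). Against CD24medCD49f-/low alone it was -0.83 (adjusted p = 0.172). Lcp1, which encodes the leukocyte actin bundler L-plastin, was the 1 measured gene of 12 leukocyte markers, and Ptprc, the gene of CD45, was not in the table. Lcp1 was itself lower in basal arrays, by -1.76 ± 0.38 (limma adjusted p = 0.000485). It was at 1.12 and 1.30 in CD24highCD49fmed, 0.56 and 1.23 in CD24medCD49f-/low, -1.29 and -0.33 in CD24medCD49fmed, -1.14 and 0.08 in Thy-1+CD24medCD49fhigh and -1.46 and -0.08 in Thy-1-CD24medCD49fhigh. Within the 6 basal arrays the values of both genes correlated at r = 0.974, given as a description. In every population the array with more Lcp1 was also the array with more Sema4d, and it was the higher-numbered array. Over all 10 arrays Lcp1 was 13th among the named genes by r with Sema4d.

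Luminal markers moved with Sema4d in the same way. The median of the 10 measured luminal markers was -1.74 and 0.03 in the CD24medCD49fmed arrays, -0.83 and 0.50 in Thy-1+CD24medCD49fhigh and -1.23 and -0.31 in Thy-1-CD24medCD49fhigh. In CD24medCD49f-/low it was 0.17 and 1.70, and in CD24highCD49fmed 0.54 and 0.98. In each population the array with the higher median was the one with more Sema4d, and this held for the 7 measured hormone sensing markers too. That array was again the higher-numbered one in every population. The 9 measured luminal progenitor markers had the same order except in CD24highCD49fmed, where their median was 1.361 and 1.359. The part of leukocyte RNA, of luminal cells or of anything else shared by the higher-numbered arrays in the Sema4d values was not tested.

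**Figure D2:**
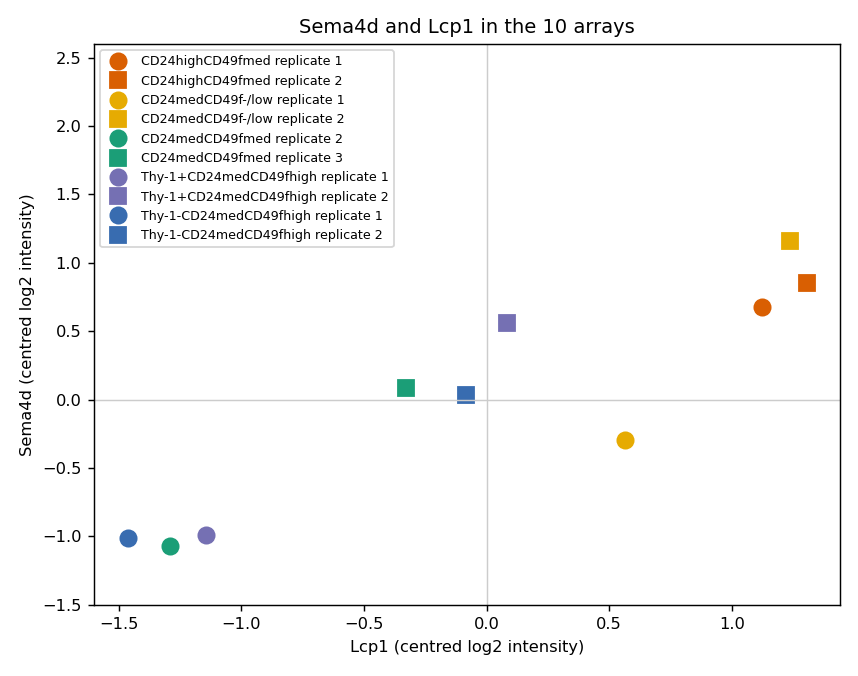
Centred log2 intensity of Lcp1 (x axis) and Sema4d (y axis) in 10 arrays, coloured by population, with circles and squares for the lower and higher numbered array. The 3 arrays at the lower left, with Lcp1 from -1.46 to -1.14 and Sema4d from -1.07 to -0.99, are 1 array from each basal population, and the other basal arrays have Sema4d from 0.03 to 0.56.

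Many markers of other cell types were also higher in basal arrays. Of 12 fibroblast markers 9 were measured, Pdgfra, the gene of the CD140α used to discard cells, not among them, with 8 called higher in basal arrays and 1 lower. Their median per array lay between -0.11 and 1.98 in basal and between -1.93 and -1.08 in luminal arrays. Of 10 pericyte markers 6 were measured and 4 were higher, and of 12 Schwann cell markers 7 were measured, with 6 higher and 1 lower. Their medians lay between -0.18 and 1.10 and between -0.03 and 0.91 in basal arrays. In luminal arrays they lay between -0.97 and -0.20 and between -0.97 and -0.61. Epidermal keratinocyte markers were called higher for 5 of 8 measured, and the 1 measured erythroid gene was higher too. For both lists the ranges of the lineages overlapped. Inside the basal lineage, fibroblast medians were 1.98 and 1.14 in Thy-1+, -0.07 and -0.11 in Thy-1- and 1.29 and 0.95 in CD24medCD49fmed cells. The mean of the 7 semaphorins other than Sema4d was 0.68 and 0.46, 0.47 and 1.22, and 1.15 and 1.19 in the same order. The value of 1.22 includes a Sema3a value of 2.51. Basal epithelium itself expresses some of these genes, and the part of such cells in the semaphorin differences was not tested.

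The spread of each gene over the 10 arrays was divided into a share between lineages, a share between populations of a lineage and a share between the arrays of a population. Between lineages lay 96.4% of the spread for Sema6d, 95.1% for Sema3b, 94.0% for Sema5a, 92.4% for Sema3c and 83.5% for Sema4g, against a median of 62.1% over all features. Arrays of different populations inside a lineage could still lie apart, as the luminal arrays of Sema3c did with probe sets averaged. That difference was not called. Sema3a, with 60.1%, was near that median, and 28.6% of its spread lay between arrays of the same population. For Sema3g the largest share, 55.8%, lay between populations of a lineage, where the median of all features was 11.4%. Sema4d had its largest share, 57.4%, between arrays of the same population, where the median was 21.4%.

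**Figure D3:**
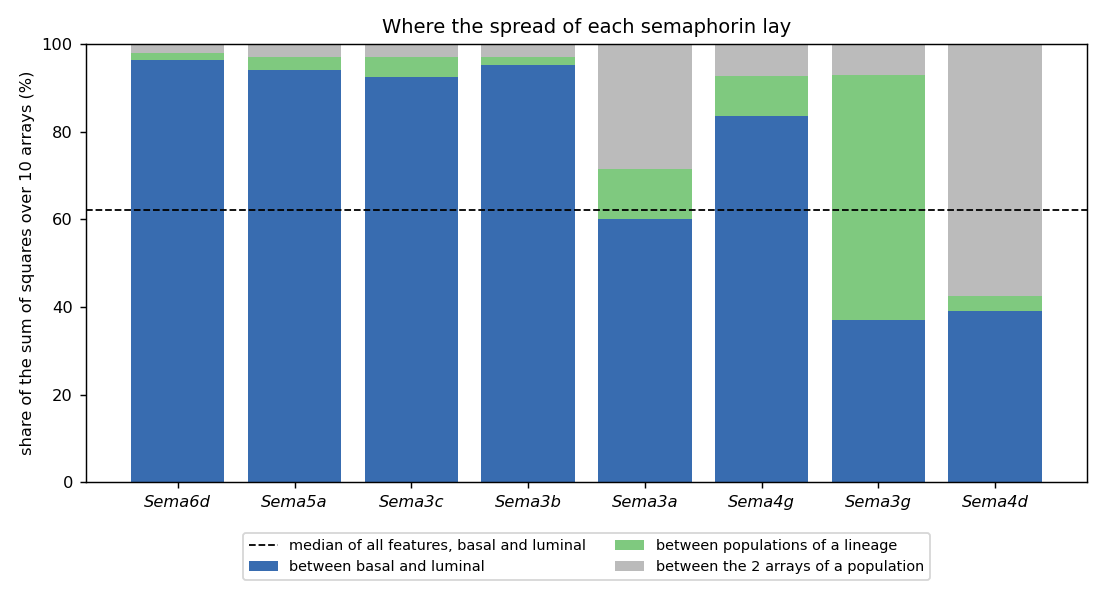
Share of each semaphorin's sum of squares over 10 arrays (y axis, percent) that lay between basal and luminal arrays (blue), between populations of a lineage (green) and between the 2 arrays of a population (grey). The dashed line marks the all-feature median of the blue share, 62.1%, which Sema6d, Sema5a, Sema3c, Sema3b and Sema4g exceed.

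A test for any difference among the 5 populations called 6 of the 8 semaphorins, against 58.4% of all features. The 6 were the genes whose lineages did not overlap, and their adjusted p (limma F test) ran from 4.63e-06 for Sema6d to 0.00881 for Sema4g. Sema3g had adjusted p = 0.0575 and Sema4d adjusted p = 0.240. Sema3g did pass with array medians set to 0 (adjusted p = 0.0414), with array weights (0.00149) and without CD24medCD49f-/low replicate 1 (0.0169) or 2 (0.0154). Sema4d passed with array weights (0.0250) and with a replicate block (0.0337), whose fit gave every semaphorin the same SE in a contrast. Without CD24medCD49f-/low replicate 1 the largest difference between its population means was 1.65, against 1.25 with all arrays.

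Inside the luminal lineage the question was whether the progenitor-labelled and the differentiated gate differ. No semaphorin was called in CD24highCD49fmed minus CD24medCD49f-/low, and none had an unadjusted p under 0.05 (limma), while 6 features in all, or 0.205%, were called and 451 had such a p. Sema3c was lower in both CD24highCD49fmed arrays, with a difference of -0.84 ± 0.51 and a 95% confidence interval from -1.90 to 0.21 (limma adjusted p = 0.404). For Sema3g the difference was -0.78 (interval -1.80 to 0.24). Sema6d, Sema3b and Sema5a had -0.47, -0.46 and -0.38. With probe sets averaged, both CD24highCD49fmed arrays lay below both CD24medCD49f-/low arrays in each of these 5 genes. That gap between means was also larger than the gap between the arrays of either population, but it did not pass the test. Single probe sets gave -0.89 and -0.04 for Sema6d, -0.74, -0.39 and -0.02 for Sema5a and -1.02 and -0.66 for Sema3c. In each of these 3 genes the populations overlapped in at least 1 probe set. Differences of Sema3a, Sema4g and Sema4d were 0.12, 0.17 and 0.33, with arrays that overlapped. The semaphorin median was -0.42, whereas the median of all features was 0.35. With array medians set to 0 the median of all features came to -0.03, and the semaphorins moved down as well, to -1.22 for Sema3c, -1.16 for Sema3g, -0.84 for Sema6d, -0.83 for Sema3b and -0.76 for Sema5a, none of them called.

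The Thy-1 comparison, of the gate labelled stem with the gate labelled progenitor, also gave no semaphorin call and no unadjusted p under 0.05 (limma). Over all features 2 were called, or 0.0682%, and 74 had such a p. Sema3a had the widest difference, -1.16 ± 0.67 with an interval from -2.54 to 0.23. Its values were -0.48 and 0.54 in Thy-1+ and -0.14 and 2.51 in Thy-1- cells, so that 1 Thy-1- array stood high and the populations overlapped. The other 7 genes lay between -0.33 for Sema6d and 0.27 for Sema4d. For Sema3b, Sema4g and Sema3g the differences were -0.03, -0.02 and -0.01, with intervals of about 1 log2 unit on either side (-1.06 to 1.00 for Sema3b). These intervals are not adjusted for the number of features, and larger differences could go uncalled too. Chl1, a gene of another list, had 2.12 ± 0.51 in this pair and was not called (limma adjusted p = 0.154). An absent call therefore does not exclude a difference of 1 log2 unit or more.

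The myoepithelial-labelled gate was compared with the mean of both CD24medCD49fhigh populations. No semaphorin was called (limma, smallest adjusted p = 1.00), 1 had an unadjusted p under 0.05, and 1 feature in all, or 0.0341%, was called, with 52 at such a p. That semaphorin was Sema3g, with 0.96 ± 0.43 (interval 0.07 to 1.85, unadjusted p = 0.0350). Both of its CD24medCD49fmed arrays lay above all 4 CD24medCD49fhigh arrays. Sema4g showed the same arrangement, at 1.05 and 0.99 against 0.63, 0.10, 0.11 and 0.68, with a difference of 0.64 (interval -0.27 to 1.54). Sema3a, Sema5a, Sema3c and Sema6d had 0.57, 0.56, 0.39 and 0.22, and Sema3b and Sema4d -0.09 and -0.14. The probe sets of Sema5a gave 1.16, 0.12 and 0.38 here, so they differed more than in the lineage contrast. Sema5a is in a gene set that the study drew from these FVB arrays for its CD24lowCD49fmed gate, and its value is not independent evidence. The semaphorin median was 0.47 and that of all features 0.04.

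**Figure D4:**
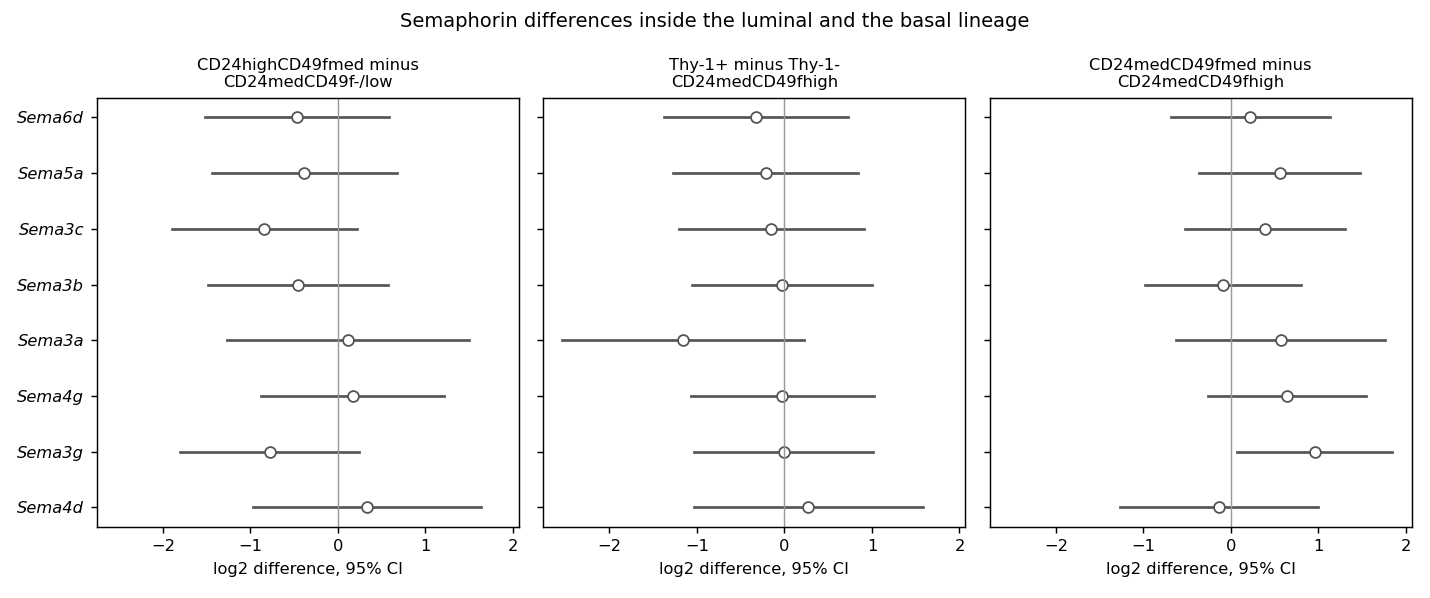
Log2 difference (x axis) of each semaphorin in the comparisons inside the luminal lineage (left) and inside the basal lineage (middle and right), with 95% confidence intervals from limma as lines. Open points are differences that were not called, which holds for all 8 genes in each panel, and the single interval that leaves out 0 is that of Sema3g on the right (0.07 to 1.85).

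The order of the populations was the same for Sema5a and Sema6d, with CD24medCD49fmed first, then Thy-1-, Thy-1+, CD24medCD49f-/low and CD24highCD49fmed. Sema3c had that order as well. In these 3 genes the neighbours among the basal populations differed by less than the gap between the arrays of a population. Sema3b put the basal populations in another order, with means of 0.89, 0.86 and 0.79 that were not separated. For Sema3a, Thy-1- and CD24medCD49fmed shared the top at 1.18 and 1.18, and the luminal populations at the bottom overlapped. Sema4g had CD24medCD49fmed on top at 1.02, above Thy-1- at 0.39 by slightly more than the replicate gap of 0.57. For Sema4d all neighbours in the order overlapped.

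The genes with the most similar pattern were named for each semaphorin by Pearson's r over the 10 arrays, with no p. All 10 arrays share the lineage split, so r over the 6 basal arrays is given too. Sema5a was closest to Camk4 (r = 0.998, and 0.966 over basal arrays), Crispld1 (0.995 and 0.970) and Sema6d (0.994 and 0.918). Sema6d was closest to Col4a2, a basement membrane collagen (0.996 and 0.961), Vcan (0.995 and 0.874) and Sema5a. Sema5a and Sema6d thus followed each other inside the basal lineage as well. Of the other transmembrane members, Sema4g had r = 0.920 with Sema5a over basal arrays, and Sema4d had -0.04.

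Sema3c was closest to Antxr1 (r = 0.994, and 0.842 over basal arrays), Lrrc8c (0.992 and 0.820) and Niban1 (0.992 and 0.885). For Sema3b the closest were Matn2 (0.986 and 0.648), smooth muscle actin Acta2 (0.984 and 0.229) and Col5a2 (0.984 and 0.455), and the likeness was mostly that of the lineage split. Sema3a was closest to Csrp2 (0.961 and 0.923), Sox11 (0.958 and 0.930) and Ipw (0.952 and 0.916). These followed its scatter among basal arrays.

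Sema4g was closest to Atxn1 (r = 0.973, and 0.935 over basal arrays), Fkbp9 (0.973 and 0.809) and 1700019D03Rik (0.968 and 0.882). Sema3g had the weakest closest genes, which were Dgkh (0.842 and 0.668), Drp2 (0.838 and 0.846) and Tgif2 (0.823 and 0.687). Sema4d was closest to Slc9a3r1 (0.956 and 0.935), Fam210b (0.950 and 0.959) and Rbm47 (0.936 and 0.937). Between semaphorins the basal arrays alone gave r from -0.80 for Sema3c with Sema4d to 0.920 for Sema4g with Sema5a.

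The receptors of these ligands could not be described, since 0 of the 11 plexin and neuropilin genes were in the table. Of 14 co-receptors and other binding partners 7 were measured, and all 7 were called between the lineages, 5 higher and 2 lower in basal arrays, where 34.7% of all features were higher and 41.3% lower. Met, the receptor tyrosine kinase for hepatocyte growth factor that associates with plexin B1, was lower by -2.59 ± 0.33 (6.03-fold, limma adjusted p = 1.93e-06). Timd2, a receptor reported to bind Sema4a, was lower by -1.82. The integrin subunits Itga1 and Itgb1, which together bind Sema7a, were higher by 1.66 and 1.46. Ptk7, a pseudokinase of planar polarity signalling, was higher by 1.13, and Nrcam, a neuropilin-binding adhesion molecule, by 0.91. Itgb1 and Itga1 have many other ligands, chiefly matrix proteins. The median of the list was 0.91, against -0.11 over all features. With CD24medCD49f-/low alone as the luminal side, 4 of the 7 were called.

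Of 26 genes of plexin signalling 8 were measured and 7 called, 5 higher and 2 lower in basal arrays. Since 34.7% of all features were called higher and 41.3% lower, the shares of called genes in both lists are read only against that background. The median of the signalling list was 1.37. Dpysl3 and Dpysl2, collapsin response mediators that carry the Sema3a signal to microtubules, were higher by 3.29 ± 0.34 (9.75-fold, limma adjusted p = 1.06e-07) and 1.87. Rnd3 was higher by 1.93. Mical1, an oxidase that takes actin filaments apart, was higher by 1.56, and Rras, a GTPase that plexins switch off, by 1.18. Farp2, an exchange factor for Rac in the Sema3a pathway, was lower by -1.27. Cdk5, a kinase that phosphorylates collapsin response mediators, was not called (0.31 ± 0.38, limma adjusted p = 0.449). All of these also act outside semaphorin signalling.

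**Figure D5:**
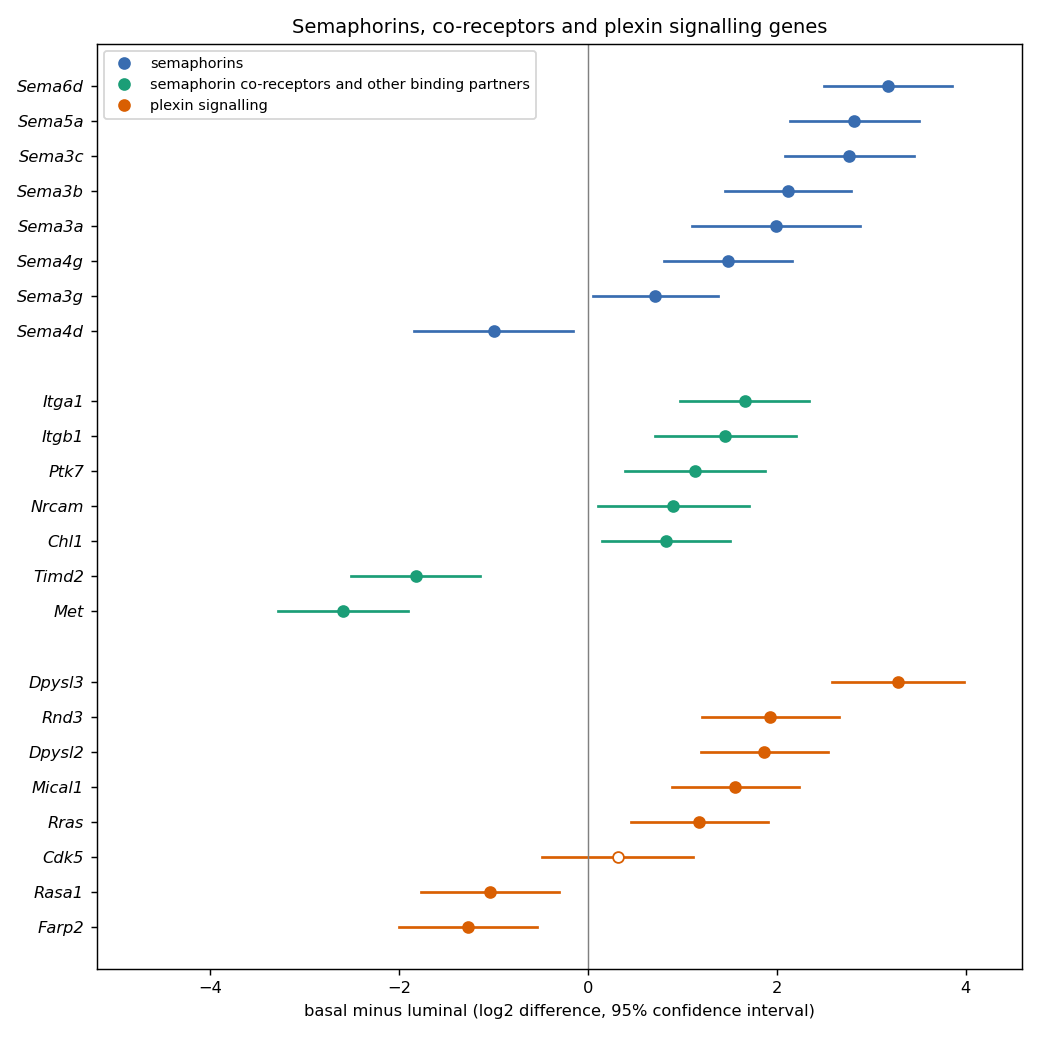
Basal minus luminal log2 difference (x axis) of the 8 semaphorins (blue), 7 co-receptors and other binding partners (green) and 8 plexin signalling genes (orange), with 95% confidence intervals from limma. Filled points are called genes, and the open point is Cdk5. Sema4d, Timd2, Met, Rasa1 and Farp2 lie left of 0.

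Neither list had a call inside a lineage (limma). Unadjusted p values under 0.05 numbered 1 and 2 of the co-receptor and signalling genes in the luminal pair, 1 and 0 in the Thy-1 pair, and 0 and 0 between CD24medCD49fmed and CD24medCD49fhigh. The co-receptor in the Thy-1 pair was Chl1, a neural adhesion molecule that is named here after its values were seen. It was higher in Thy-1+ cells by 2.12 ± 0.51 (limma adjusted p = 0.154). The Schwann cell marker median was 0.91 and 0.73 for Thy-1+ against -0.03 and 0.12 for Thy-1- cells. For fibroblast markers it was 1.98 and 1.14 against -0.07 and -0.11, and for pericyte markers 0.97 and 1.10 against -0.0035 and -0.18. Their part in the Chl1 difference was not tested. With only the 4 arrays of that comparison in the fit, 1 co-receptor was called, and also without CD24medCD49f-/low replicate 1 or 2. In the luminal pair 3 signalling genes were called without CD24medCD49f-/low replicate 1.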

How the data were processed

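Per the labels, the measurements were Affymetrix mouse genome arrays, labelled from the 3' end in 2 cycles. The authors normalised them by RMA (the labels also name GCRMA, and neither source gives a version), filtered them on a minimum level and a 4-fold range, and centred each one. The deposited values are therefore centred log2 intensities, from which neither level nor signal over background can be read. Precision is limited by how few arrays there are.

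Of 3663 probe sets 3291 had 1 gene symbol, 75 several and 297 none in the platform annotation. Probe sets were averaged per gene. All 10 arrays entered 1 limma model (limma 3.58.1, R 4.3.3, lmFit and eBayes) with a mean per population, which left 5 residual degrees of freedom with 16.5 from moderation. The code was tested on simulated data. Tests were two-sided, adjusted by Benjamini-Hochberg over 2932 features and called under 0.05. Rank products, the study's test, was not run.

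The members, gene lists and tests were chosen with earlier results of these data known. The genes named were all semaphorins, the 3 genes most like each, and up to 6 called genes of the co-receptor and the signalling list with the largest basal minus luminal difference. Alternatives were other scalings, robust moderation, array weights, single probe sets, a replicate block, a minimum log2 difference of 1, only the arrays compared and each array left out. Either luminal population alone as the luminal side was added after seeing the data.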

Additional observations from a re-analysis of the deposited data

How the results depend on the processing

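Sema6d, Sema5a, Sema3c, Sema3b, Sema3a and Sema4g kept their direction and their call between the lineages under every alternative run, and none of the 8 semaphorins was called inside a lineage under any of them. The number called between the lineages was 8, with 6 to 8 when each array was left out in turn, and for any difference 6, with 6 to 8. The calls of Sema3g and Sema4d depended on the setting, as given with their values. Differences that were not called changed sign in places. In the luminal pair, array medians set to 0 gave -0.26 for Sema3a, -0.045 for Sema4d and -0.21 for Sema4g, and quantile normalisation gave -0.25 for Sema4d. These scalings moved the median of all features there from 0.35 to -0.03 and 0.01, in the Thy-1 pair from 0.15 to -0.02 and -0.04, and between the lineages from -0.11 to -0.20 and -0.19. For CD24medCD49fmed against CD24medCD49fhigh, single probe sets gave 0.00077 for Sema3b.

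With each array left out in turn, the luminal pair ran from -0.40 to 1.06 for Sema4d and from -0.085 to 0.42 for Sema4g. The Thy-1 pair ran from -2.48 to 0.17 for Sema3a, -0.28 to 0.22 for Sema3b, -0.57 to 0.26 for Sema3c, -0.21 to 0.19 for Sema3g, -0.50 to 1.05 for Sema4d, -0.31 to 0.26 for Sema4g, -0.61 to 0.18 for Sema5a and -0.74 to 0.093 for Sema6d. CD24medCD49fmed against CD24medCD49fhigh ran from -0.092 to 1.23 for Sema3a, -0.32 to 0.15 for Sema3b and -0.72 to 0.44 for Sema4d. A population left with 1 array was assumed to vary like the others. Co-receptor calls numbered 4 with CD24medCD49f-/low alone as the luminal side. In the Thy-1 pair they numbered 1 with only the arrays compared and 0 to 1 with arrays left out, and signalling calls in the luminal pair numbered 0 to 3. The cause was not tested. No alternative could be run for the plexins and neuropilins, which were not in the table.

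Whether the replicate numbers pair the samples could not be told. The 2 arrays of a population deviate as mirror images, and those of CD24medCD49fmed are numbered 2 and 3. The 16 same-numbered pairs had deviations that correlated between -0.53 and 0.51, with a median of -0.12. Equal numbers gave r = 0.51 in the luminal pair and 0.31 in the Thy-1 pair, but -0.53 for CD24medCD49fmed with Thy-1+CD24medCD49fhigh. With the replicate block, 7 semaphorins were called between the lineages and 7 for any difference. The block changed the call of Sema3g between the lineages (0.80, adjusted p = 0.0757) and of Sema4d for any difference (adjusted p = 0.0337) and no other semaphorin call. Its values for CD24medCD49fmed against CD24medCD49fhigh were -0.42 for Sema3a and 0.00063 for Sema3b. In the block fit every semaphorin had the same SE, 0.42 between the lineages and 0.60 in the luminal pair. A gene's own scatter thus did not set its p-value there. The number 3 belongs to 1 array only, so its block term takes up that array. With these limits, over all features the block raised calls in the luminal pair from 6 to 33, in the Thy-1 pair from 2 to 9 and for CD24medCD49fmed from 1 to 19. Leaving out CD24medCD49f-/low replicate 1 or 2 raised those of the luminal pair to 295 and 118.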
